A study of Mus musculus with 10 samples.

Results

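The genes followed in mouse brown adipose tissue handle or control small organic osmolytes: Slc5a3, Slc5a7, Slc6a6, Slc6a12, Akr1b3 and Nfat5. They are 6 of the 32889 genes in the expression table and were taken by gene symbol. They were selected on their measured levels in these libraries, above all the difference between obesity-prone and control, so the values of the 6 genes in both comparisons that involve the obesity-prone libraries are given as a description, without a test. All 6 passed the filter on low counts, as did 19676 genes in all. Slc5a7 passed only through the groups in which it was high, since 3 obesity-prone libraries, 1 obesity-resistant library and 0 control libraries reached the level of the filter. For Slc6a12 the corresponding numbers were 2, 0 and 3.

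Total RNA came from brown fat of wild-type C57BL/6J mice. The 4 control libraries were from mice on regular chow. The 3 obesity-prone and the 3 obesity-resistant libraries were from mice on a high-fat diet, and the labels do not say how the prone and resistant animals were told apart. Nor do they give sex, age or the time on the diet. They leave unsaid whether each library is a different mouse, so every p-value measures only the spread between these samples.

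Cells that lose water to hypertonic surroundings take up or make small organic solutes, the compatible osmolytes, which restore their volume without disturbing proteins. NFAT5, also called TonEBP, is the transcription factor best known for switching on this program, above all in the kidney medulla, and it binds a sequence called the tonicity enhancer. Its classic targets import myo-inositol (Slc5a3, encoding SMIT1), taurine (Slc6a6, encoding TauT) and betaine (Slc6a12, encoding BGT1), or make sorbitol from glucose (Akr1b3, aldose reductase). Slc5a7 encodes the high-affinity choline transporter of cholinergic nerve endings. It is grouped with the others because choline is the precursor of betaine.

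Promoter sequence from RefSeq (GRCm38.p6) was given for 4 of the 6 genes: Slc5a3, Slc5a7, Nfat5 and Slc6a12. Each window holds 250 bases before a start site and 50 after it. A sequence that fits the tonicity enhancer consensus was searched for on both strands, and 1628 of the 32851 windows of this length, 4.96%, held one. Its core, TGGAAA, was found in 7040 windows, 21.4%. Slc6a12 has 5 windows, of which 1 held a match to the full consensus. The share of 4.96% is per window, so a gene with 5 windows has more occasions for a match than a gene with 1. Slc5a3, Slc5a7 and Nfat5 have 1 window each and held none, which says only that these letters are not in these windows. A pair of stretches is shown, the first because Slc5a3 shares its start region with a second gene that bears on its counts, the second because it carries the match.

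The Slc5a3 stretch is chr16:92058072-92058336 on the plus strand. Its capitals mark the 14 bases from the start of Slc5a3 to the base before the start of Mrps6, as RefSeq places them.
Slc5a3: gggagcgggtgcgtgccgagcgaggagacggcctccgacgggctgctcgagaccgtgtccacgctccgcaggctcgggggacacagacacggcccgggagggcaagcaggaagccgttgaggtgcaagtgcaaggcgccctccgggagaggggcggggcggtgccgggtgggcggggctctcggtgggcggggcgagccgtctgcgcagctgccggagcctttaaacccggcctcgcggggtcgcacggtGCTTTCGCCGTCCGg

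The Slc6a12 stretch is chr6:121342324-121342574 on the plus strand. Its capitals mark the 11 bases that fit the tonicity enhancer, the first of them 75 bases before the start of the gene.
Slc6a12: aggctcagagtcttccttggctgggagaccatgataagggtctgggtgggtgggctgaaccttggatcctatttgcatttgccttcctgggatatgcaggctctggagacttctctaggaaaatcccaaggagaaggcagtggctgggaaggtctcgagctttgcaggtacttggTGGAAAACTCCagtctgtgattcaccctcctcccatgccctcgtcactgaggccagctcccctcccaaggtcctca

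Total counts lay between 35583997 and 37327770 per library. Brown adipocyte markers were abundant in every library, with a summed level of 13488 to 16698 CPM (counts scaled by TMM-corrected library size) in the control libraries, 7157 to 14213 in the obesity-prone ones and 14845 to 15958 in the obesity-resistant ones. The lowest was obesity-prone 3, which also had the highest sums of white adipocyte markers (940.0 CPM, against 38.3 to 169 in the other 9 libraries), macrophage markers (397 against 106 to 278) and erythrocyte markers (22142 against 707 to 6148). Skeletal muscle markers ranged from 1.12 to 635 CPM in the control libraries, 1.47 to 57.5 in the obesity-prone ones and 2.34 to 555 in the obesity-resistant ones. The part of these differences in the results that follow was not tested. Control 4 had the highest level of the 4 control libraries for Slc5a3, Slc6a6, Akr1b3 and Nfat5, and also the highest erythrocyte marker sum of that group, 6148 CPM against 820.3 to 1219.

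Slc5a3, the sodium-coupled importer of myo-inositol, was the member with the clearest separation of both high-fat diet groups from control. It stood at 50.9, 69.2, 51.4 and 76.3 CPM in control libraries 1 to 4, at 147, 333 and 208 in obesity-prone libraries 1 to 3, and at 191, 162 and 162 in obesity-resistant libraries 1 to 3. Every high-fat diet library lay above every control library, while the obesity-prone and obesity-resistant ranges overlapped. The group means were 62.0 ± 12.8 (SD, n = 4), 229 ± 94.4 (n = 3) and 172 ± 16.5 CPM (n = 3). Obesity-prone 2 was the highest library, and without it the log2 fold change against control was 1.52 in place of 1.89 ± 0.25 (SE).

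Obesity-resistant against control is the comparison given with a test, although its 4 control libraries are those of the comparison that the choice of the genes drew on, so its p-values are not independent of that choice. Here the Slc5a3 level was 2.77-fold, a log2 difference of 1.47 ± 0.25 that narrowly missed the threshold of 0.05 (adjusted p = 0.053, edgeR). With the replicate number as a block it was 1.62 and passed (adjusted p = 0.0313). In that fit control 4 had no counterpart and dropped out. Over all alternatives tried, the adjusted p ranged from 8.55e-06 with DESeq2 to 0.248 without obesity-resistant 1. It passed without control 4 (0.0173) and without obesity-prone 1, 2 or 3 (0.04, 0.0125 and 0.0401), libraries of which the last 3 enter this comparison only through the shared spread. It did not pass without control 1, 2 or 3 (0.134, 0.139 and 0.179) or without obesity-resistant 1, 2 or 3 (0.248, 0.139 and 0.169). The difference of the means, 109.6 CPM, was larger than the SD of either group. Between obesity-prone and obesity-resistant libraries the log2 difference was 0.42 ± 0.26, and the difference of the means, 57.7 CPM, was smaller than the SD of 94.4 among the obesity-prone libraries. It was 0.05 on the log2 scale without obesity-prone 2 and 0.66 without obesity-prone 1. In a bulk tissue, a change in the number of cells of a type and a change in RNA per cell cannot be told apart.

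**Figure D1:**
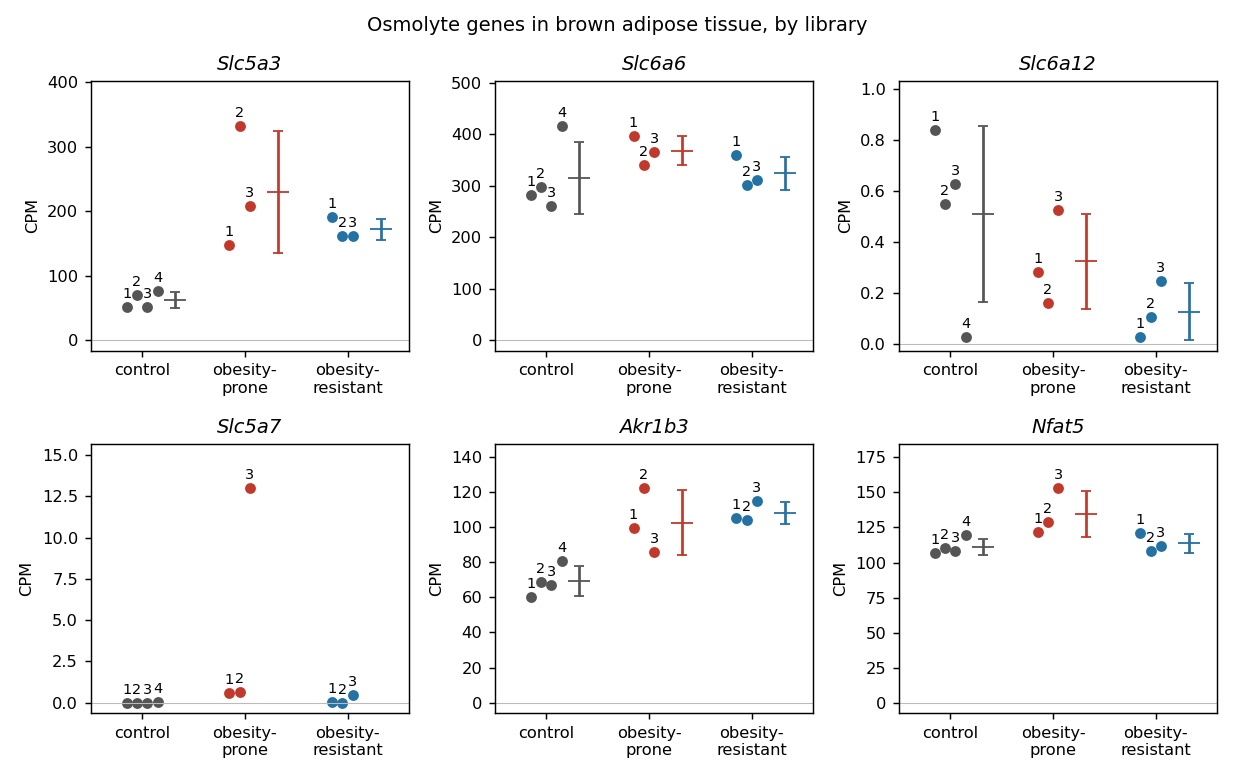
Level of the 6 genes in CPM (vertical axis, linear, from 0) in the control, obesity-prone and obesity-resistant libraries; each point is 1 library with its replicate number, and bars show the group mean with the SD, left out for Slc5a7, whose SD exceeds its mean. Slc5a3 and Akr1b3 lie above control in all 6 high-fat diet libraries, and 1 library, obesity-prone 3, sets the scale for Slc5a7.

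Slc5a3 (identifier 53881) lies on chromosome 16 at 92058322 to 92087473 in RefSeq's annotation of GRCm38.p6, on the plus strand. Mrps6 (identifier 121022), which encodes a protein of the small subunit of the mitochondrial ribosome, starts 14 bases further on the same strand, at 92058336, and ends at 92112227. The GENCODE vM21 annotation of GRCm38 has the starts in the other order, with that of the coding Mrps6 transcript 52 bases before that of Slc5a3. In it, 159 exonic bases are common to both genes, 1.46% of the 10913 exonic bases of Slc5a3 and 10.4% of the 1533 of Mrps6. The coding sequence of Slc5a3, 2154 bases, lies in 1 exon, inside an intron of Mrps6. Reads from the common bases cannot be assigned to 1 of these genes by position. Another protein-coding gene on the same strand, Gm49711, shares 159 exonic bases with Slc5a3 and 305 with Mrps6, 19.9% of those of Mrps6. Both counts carry this uncertainty, that of Mrps6 over a larger share of its length.

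Mrps6 itself stood at 21.6, 25.9, 21.8 and 22.1 CPM in the control libraries, at 41.9, 68.6 and 55.0 in the obesity-prone libraries and at 43.4, 42.4 and 40.1 in the obesity-resistant libraries. As with Slc5a3, obesity-prone 2 was highest and the control range was below both others. The log2 difference of Mrps6 was 1.27 ± 0.14 in obesity-prone against control and 0.40 ± 0.15 between the diet-fed groups. Mrps6 was named after its values were seen and shares bases with Slc5a3. Its values in both comparisons that involve the obesity-prone libraries are therefore a description, without a test. In obesity-resistant against control its log2 difference was 0.88 ± 0.14 (adjusted p = 0.053, edgeR), a p-value that is not independent of that choice.

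Per unit of transcript length (FPKM, scaled for length and depth), Mrps6 was above Slc5a3 in every library. The ratio of Mrps6 to Slc5a3 was 4.33, 3.98, 4.89 and 3.21 in the control libraries, 2.77, 1.61 and 2.39 in the obesity-prone and 1.98, 2.23 and 2.38 in the obesity-resistant libraries. The control ratios were thus all above the others, with means of 4.10 ± 0.704 (SD, n = 4), 2.26 ± 0.595 (n = 3) and 2.2 ± 0.201 (n = 3): the level of Slc5a3 differed between the diets by a larger factor than that of Mrps6. The length that count and FPKM together imply for Mrps6 was 946 to 1025 bases in control libraries, 1121 to 1402 in the obesity-prone and 1135 to 1231 in obesity-resistant ones, while GENCODE lists Mrps6 transcripts of 702, 846 and 1115 bases. RSEM averages a gene's length over the transcripts to which it assigns reads, and the control lengths all lay below the others. In every high-fat diet library the implied length exceeded 1115 bases, which no average over the listed transcripts can give. The transcripts used in the counting are not given, so the FPKM of Mrps6 and its ratio to Slc5a3 carry this uncertainty.

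**Figure D2:**
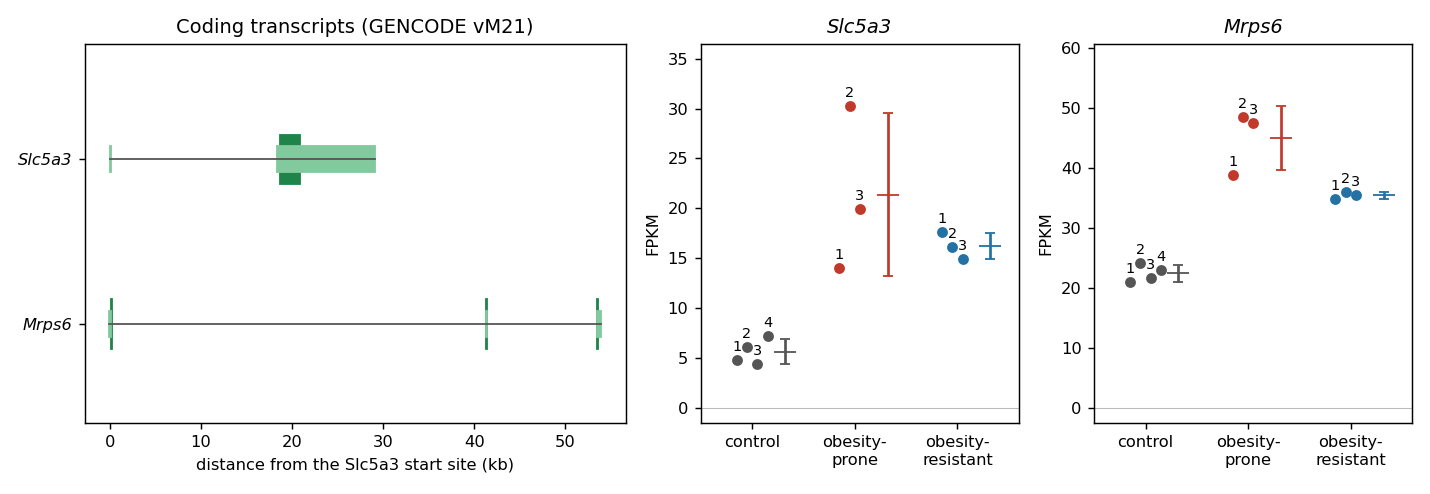
Left, coding transcripts of Slc5a3 and Mrps6 in GENCODE vM21 by distance from the Slc5a3 start site in kb, with exons as pale boxes, coding parts as dark boxes and introns as lines; right, the FPKM of each gene by library (points with replicate numbers) with the group mean and SD. The Slc5a3 coding exon lies inside an intron of Mrps6, and both genes are higher in all 6 high-fat diet libraries than in every control library.

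Slc6a6 (identifier 21366, chromosome 6, 91684048 to 91759063), the taurine importer, did not separate the groups. It stood at 282, 297, 261 and 417 CPM in control, 397, 341 and 366 in the obesity-prone and 360.4, 301 and 311 in obesity-resistant libraries. Control 4 was the highest library of all 10, and the 3 ranges overlapped. The means were 314 ± 70.0 (SD, n = 4), 368 ± 27.9 (n = 3) and 324 ± 31.6 CPM (n = 3). The log2 difference was 0.23 ± 0.16 for obesity-prone and 0.05 ± 0.16 for obesity-resistant libraries against control, the latter with an adjusted p of 0.92. For obesity-prone against control it was 0.39 without control 4, 0.15 without control 3 and 0.38 with limma on log2(FPKM + 0.5). Between the groups on the high-fat diet it was 0.18 ± 0.17. GENCODE places a gene of the opposite strand, Gm44981, over 117 exonic bases of Slc6a6, 1.38% of its exonic length, and no strand setting is given.

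Slc6a12, the betaine importer with the match printed above, was close to the detection limit. Its counts were 30, 19, 22 and 1 in the control libraries, 11, 6 and 20 in the obesity-prone and 1, 4 and 9 in the obesity-resistant libraries, or 0.0268 to 0.839, 0.163 to 0.526 and 0.0278 to 0.247 CPM. The ranges overlapped, and control 4, with 1 count, lay at the bottom of its group. Summed over libraries there were 72, 37 and 14 counts. The ratio per total count was 0.263 for obesity-resistant to control (exact 95% interval 0.137 to 0.471), an interval that covers counting error only. With the spread between libraries included, the log2 difference in obesity-resistant against control was -1.97 ± 0.89 (adjusted p = 0.28). It ranged from -2.83 without obesity-resistant 3 to -1.51 without obesity-resistant 1, and without control 4 it was -2.37 (adjusted p = 0.0613). In obesity-prone against control it was -0.64 ± 0.78, with -1.17 without obesity-prone 3, -1.04 without control 4, -0.33 without obesity-prone 2 and -0.29 without control 1.

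Slc6a13, which encodes GAT2, a transporter of GABA that also carries taurine and betaine, ends 4852 bases before Slc6a12 on chromosome 6. Its control libraries were tightly grouped at 1.43, 1.42, 1.57 and 1.53 CPM, against 7.87, 2.77 and 26.3 in the obesity-prone and 1.61, 0.994 and 3.56 in obesity-resistant libraries. Slc6a13 rose in obesity-prone against control by a log2 fold change of 3.05 (adjusted p = 0.03), with obesity-prone 3 far above the others. The fold change was 1.84 without obesity-prone 3, and the call was lost in 4 of the 10 fits that left out 1 library.

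Slc5a7 (identifier 63993, chromosome 17, 54273590 to 54299038, minus strand) was nearly undetected in control and low or absent in every high-fat diet library except obesity-prone 3. It had 0, 0, 0 and 1 counts in the control libraries, 23, 23 and 493 in the obesity-prone libraries and 2, 0 and 16 in the obesity-resistant libraries. All 3 obesity-prone libraries were above all others, but 1 library, obesity-prone 3, held most of the counts. On the CPM scale the obesity-prone libraries stood at 0.593, 0.625 and 13.0 and the highest other library at 0.439. A count of 0 over the control group would allow up to 0.0204 CPM at a floor of 3 counts.

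Summed over libraries, Slc5a7 had 539 counts in the obesity-prone group, 18 in the obesity-resistant group and 1 in control. Relative to total counts, the ratio of obesity-resistant to control was 24.4, with an exact 95% interval of 3.85 to 1015 that covers counting error only. The SD between the obesity-prone libraries, 7.14 CPM, was larger than their mean of 4.73. The fitted log2 difference in obesity-resistant against control was 4.01 ± 2.54 (adjusted p = 0.44), with 1.57 without obesity-resistant 3, which held 16 of the 18 counts, and 5.61 without control 4. Fitted values against 1 count depend on the prior count: that for obesity-prone against control was 8.83 with all libraries, 5.88 without obesity-prone 3 and 10.44 without control 4.

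Nerve markers were measured beside Slc5a7. Of 8 markers of cholinergic and sympathetic neurons, 5 were in the table and 2 passed the filter. The vesicular acetylcholine transporter Slc18a3 had 0 counts in control, 1 in the obesity-prone and 0 in obesity-resistant libraries together. The acetylcholine-degrading enzyme Ache had 29.1 to 72.9 counts per control library, 34.2 to 51.7 per obesity-prone and 44.1 to 52.7 per obesity-resistant library. The summed neuronal markers came to 4.26 CPM in obesity-prone 3, against 2.65 to 3.30 in control and 4.03 to 4.32 in the other high-fat diet libraries. In this sum every high-fat diet library was above every control library. Of all genes, 9.66% had this order in obesity-prone and 10.5% in obesity-resistant against control. The listed genes Chat, which makes acetylcholine, Th and Dbh were not among the 5 measured. Slc18a3 and Prph had at most 1 and 3 counts per library, so nearly all of the sum came from Tubb3, Snap25 and Uchl1. It is therefore not a measure of cholinergic nerves in particular. Obesity-prone 3 is also the library with the lowest brown adipocyte and the highest white adipocyte, macrophage and erythrocyte marker sums, and the part of these markers in the Slc5a7 level was not tested.

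Akr1b3 (identifier 11677, chromosome 6, 34303930 to 34317489), the aldose reductase that turns glucose into sorbitol, was higher in both groups on the high-fat diet to a similar extent. Its levels were 60.1, 68.9, 66.9 and 80.7 CPM in control, 99.4, 122 and 85.5 in the obesity-prone and 105, 104 and 115 in obesity-resistant libraries. No high-fat diet library reached down to the control range. The means were 69.1 ± 8.57 (SD, n = 4), 102 ± 18.3 (n = 3) and 108 ± 6.18 CPM (n = 3), or 1.48-fold and 1.56-fold the control level. The log2 difference in obesity-resistant against control was 0.64 ± 0.13 with an adjusted p of 0.074. With the replicate number as a block, where control 4 again dropped out, it was 0.73 with an adjusted p of 0.0433. Over all alternatives its adjusted p ranged from 0.00203 to 0.283, and it also passed without control 4 (0.0202), without obesity-prone 2 (0.0393) and without obesity-prone 3 (0.0364). It did not pass without control 1, 2 or 3 (0.189, 0.158 and 0.2), obesity-prone 1 (0.102) or obesity-resistant 1, 2 or 3 (0.283, 0.178 and 0.202). Between the diet-fed groups the log2 difference was -0.08 ± 0.14, and their means differed by 5.69 CPM, less than the SD of the obesity-prone libraries.

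Nfat5 (identifier 54446, chromosome 8, 107293435 to 107379517), the transcription factor itself, had the narrowest relative range over the 10 libraries among the 6 genes. It stood at 107, 110.3, 108 and 119.6 CPM in control, 122, 129 and 153 in the obesity-prone and 121, 108 and 112 in obesity-resistant libraries. The obesity-prone libraries were above all others, by a small margin: the lowest of them was at 122 and the highest control library at 119.6. The means were 111 ± 5.61 (SD, n = 4), 135 ± 16.2 (n = 3) and 114 ± 6.75 CPM (n = 3). The log2 difference was 0.27 ± 0.10 in obesity-prone against control, or 1.21-fold, and 0.17 without obesity-prone 3. In obesity-resistant against control it was 0.03 ± 0.10 (adjusted p = 0.9). NFAT5 is regulated largely through its protein and its location in the cell, which RNA levels do not measure.

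**Figure D3:**
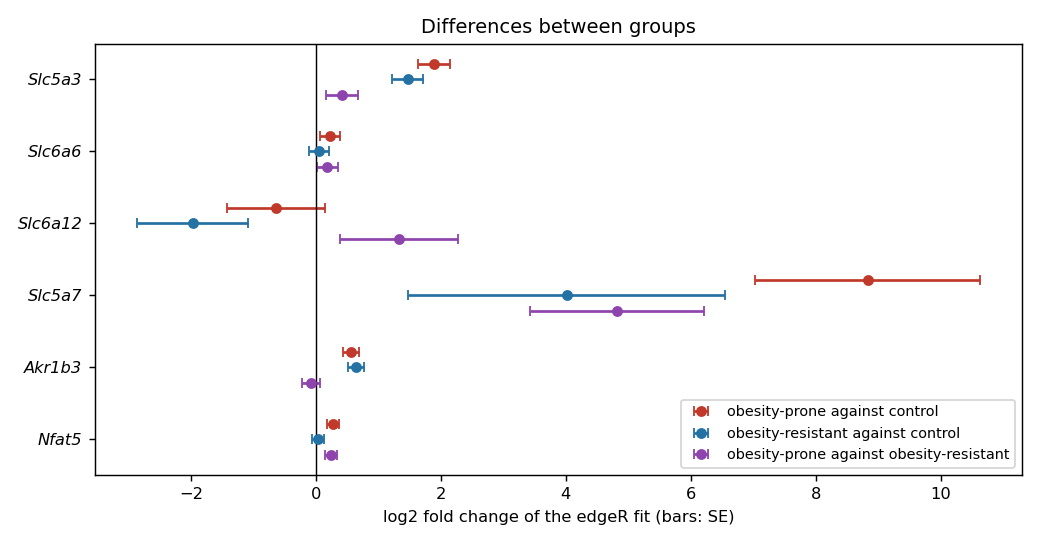
Log2 fold change of each gene in the 3 comparisons (horizontal axis), with bars of 1 SE from the edgeR fit over all 10 libraries. Slc5a3 lies at 1.89 and 1.47 against control in obesity-prone and obesity-resistant libraries and Akr1b3 at 0.56 and 0.64, while the values of Slc5a7 and Slc6a12 rest on few counts and carry wide bars.

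By level per length, the order in control was Slc6a6 (59.4 ± 14.5 FPKM), Akr1b3 (49.4 ± 7.67), Nfat5 (13.9 ± 0.947), Slc5a3 (5.62 ± 1.23), Slc6a12 (0.205 ± 0.140) and Slc5a7 (0.00250 as the mean of 4 libraries). Slc6a6 and Akr1b3, neighbours in this order, did not differ beyond their spread. In obesity-prone libraries Akr1b3 (76.6 ± 11.7 FPKM) and Slc6a6 (75.9 ± 3.43) again did not, and Slc5a3, at 21.4 ± 8.19, did not differ from Nfat5, at 17.4 ± 2.45, beyond its spread. In obesity-resistant libraries Akr1b3 (80.1 ± 4.68 FPKM) stood above Slc6a6 (64.9 ± 5.62), and Slc5a3 (16.2 ± 1.35) and Nfat5 (14.8 ± 0.540) lay close to each other. Slc5a3 thus stood below Nfat5 in control and near it in both groups on the high-fat diet. At the bottom, Slc5a7 had a mean of 0.960 FPKM (SD 1.45) and Slc6a12 one of 0.140 ± 0.0819 in obesity-prone libraries. In obesity-resistant libraries they had 0.0333 and 0.0533 ± 0.0513. In neither group did they differ beyond their spread.

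Between groups, 4 of the 6 genes had every obesity-prone library above every control library: Slc5a3, Slc5a7, Akr1b3 and Nfat5. Of all genes tested, 9.66% did, and the 6 were chosen with this comparison in view. The same held in obesity-resistant against control for 2 of 6, Slc5a3 and Akr1b3, against 10.5% of all genes. Every obesity-prone library lay above every obesity-resistant library for 2 of 6, Slc5a7 and Nfat5, against 9.99%. None of the 6 passed the test in obesity-resistant against control, where edgeR called 28 of 19676 genes, 0.142%. At an unadjusted p under 0.05 there were 3 of the 6, beside 18.0% of all genes. DESeq2 called 2, beside 5.53% of the genes it tested, and limma on log2(FPKM + 0.5) called 1, beside 0.183%.

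The pathway around the 6 genes was described with 8 lists of 138 other genes, of which 129 were in the table and 103 passed the filter. In obesity-prone against control, 15 of the 103 passed the test, 9 higher and 6 lower, or 14.6%, beside 7.00% of all genes (1377 of 19676, 3.71% higher and 3.29% lower). The lists were drawn up with earlier results known, among them those of Hspa1a, Hspa1b, Tnf and Slc2a5, so the count is a description. The median log2 fold change of the 103 genes was 0.02, that of all genes 0.00. The count depended on single libraries, as did that over all genes. It was 1, 3, 0 and 35 without control 1, 2, 3 and 4, where 1.31%, 1.30%, 0.389% and 15.6% of all genes were called. Without obesity-prone 1 and 3 it was 8 and 2, beside 2.52% and 2.67%, and without obesity-resistant 1, 2 and 3 it was 9, 8 and 9, beside 3.75%, 2.91% and 3.52%. For obesity-resistant against control, 0 of the 103 were called by edgeR, beside 0.142% of all genes. There were 30 at an unadjusted p under 0.05 (18.0% of all genes), 11 by DESeq2 (5.53%), 0 by limma (0.183%) and 6 by edgeR with the replicate number as a block (1.94%). Without control 4, obesity-prone 2 or obesity-prone 3 the count was 13, 4 or 3, beside 4.42%, 0.891% and 1.46% of all genes. In obesity-prone against obesity-resistant, edgeR again called 0, of the list genes and of all genes. There were 20 at an unadjusted p under 0.05 (15.4% of all genes), 2 by DESeq2 (2.93%), 0 by limma and 5 by edgeR without obesity-prone 2 (4.31%).

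Among tonicity-responsive and NFAT5 target genes other than the 6, 5 of 14 rose in obesity-prone against control and none fell. Of all genes, 3.71% rose and 3.29% fell. The median log2 difference over the 14 was 1.31. The results of Hspa1a, Hspa1b and Tnf were known when this list was drawn up, so its count and median are a description. The median was 0.82 in obesity-resistant against control, where 0 of 14 passed. The 5 were Hspa1a and Hspa1b, the inducible HSP70 chaperones, Hspa4l, a chaperone of the HSP110 family, the heme-degrading enzyme Hmox1 and the cytokine Tnf. Hspa1b stood at 3.52 to 22.7 CPM in control, 71.8, 793 and 145 in the obesity-prone and 242, 109 and 92.1 in obesity-resistant libraries. Its log2 fold change in obesity-prone against control was 4.72 (adjusted p = 0.026), that of Hspa1a 4.43 (adjusted p = 0.029). These genes are near-identical copies between which reads can be split, so their separate values are uncertain.

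Hspa4l rose from 34.2 ± 5.11 CPM (SD, n = 4) in control to 112 ± 81.8 (n = 3) in obesity-prone libraries, with 206 in obesity-prone 2 (log2 fold change 1.71, adjusted p = 0.03). The fold change was 0.94 without obesity-prone 2, and the call was lost in 5 of the 10 fits that left out 1 library. Its obesity-resistant libraries stood at 129, 113 and 111 CPM (log2 difference 1.78, adjusted p = 0.077). Obesity-prone 2 was therefore the highest library for Slc5a3, Mrps6, Hspa1a, Hspa1b and Hspa4l, while Hmox1 and Tnf peaked in obesity-prone 3. Hmox1 had a log2 fold change of 1.94 (adjusted p = 0.046) and Tnf, at 0.169 ± 0.0775 CPM in control against 0.951 ± 0.642 in obesity-prone libraries, one of 2.48 (adjusted p = 0.045). Tnf stood at 0.0559 to 0.232 CPM in control and at 1.11, 0.245 and 1.50 in obesity-prone libraries 1 to 3. Its higher mean thus rested on obesity-prone 1 and 3. In every control library and in obesity-prone 2 it had fewer than 10 counts, the minimum count of the filter. Tnf passed the filter only through high-fat diet libraries, in which it was high. Its result was also known when the list was drawn up, so its call is a description. The macrophage marker sum, like Hmox1 and Tnf, was highest in obesity-prone 1 and 3. In obesity-resistant libraries that sum was 106 to 123 CPM, against 115 to 181 in control. Hmox1 and Tnf had log2 differences of 0.85 and 1.63 there (adjusted p = 0.4 and 0.23). The part of macrophages in these levels was not tested. Slc38a2, the amino acid transporter SNAT2, did not pass (log2 difference 1.08, adjusted p = 0.052), with 145 CPM in control 4 beside 60.3 to 67.1 in the other control libraries. Nor did S100a4, a calcium-binding protein (1.54 ± 0.42, adjusted p = 0.053), or the water channel Aqp1 (0.40 ± 0.19, adjusted p = 0.19), the most abundant of the list at 73.1 FPKM.

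None of 12 genes of the NFAT family and of NFAT5 activation passed in obesity-prone against control, where the median log2 difference was 0.10. Akap13, a guanine nucleotide exchange factor known to act on NFAT5, was the most abundant at 43.3 FPKM over all libraries and had a log2 difference of 0.16 ± 0.11 (adjusted p = 0.39). Nfatc2, a calcium-regulated family member, stood at 4.98 ± 1.37, 9.54 ± 4.71 and 4.24 ± 1.27 CPM in control, obesity-prone and obesity-resistant libraries. The nucleoporin Nup88 had a log2 difference of -0.28 ± 0.09 in obesity-prone against control (adjusted p = 0.089), and the p38 kinase Mapk14 one of 0.25 ± 0.11 in obesity-resistant against control (adjusted p = 0.28). Of 8 other genes of myo-inositol handling none passed, and their median log2 difference was -0.29 in obesity-prone against control. Nearest to the threshold was Inpp1, an inositol polyphosphate phosphatase, at -0.34 ± 0.09 (adjusted p = 0.054). The most abundant, the inositol phosphate kinase Itpk1 at 67.5 FPKM, had a log2 difference of -0.59 ± 0.20 in obesity-resistant against control (adjusted p = 0.17).

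Among 7 genes of taurine handling, Slc6a13 rose and Fmo1 fell in obesity-prone against control, where 3.71% of all genes rose and 3.29% fell. Fmo1, a flavin monooxygenase able to oxidise hypotaurine to taurine, stood at 303 ± 97.1 CPM (SD, n = 4) in the control group, at 152 ± 33.5 (n = 3) in the obesity-prone and at 186 ± 23.8 (n = 3) in the obesity-resistant group (log2 fold change -1.0, adjusted p = 0.045). Cdo1, the cysteine dioxygenase that feeds taurine synthesis, was the most abundant list gene at 553 FPKM and had a log2 difference of -0.34 ± 0.24 (adjusted p = 0.37). Slc36a1, a proton-coupled amino acid transporter, had one of 0.27 ± 0.09 in obesity-resistant against control (adjusted p = 0.18).

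Of 25 genes of choline and betaine handling, 2 fell and none rose in obesity-prone against control, where 3.29% of all genes fell. Sardh, the mitochondrial sarcosine dehydrogenase downstream of betaine, stood at 24.1 ± 4.85 CPM in control, 13.4 ± 1.30 in the obesity-prone and 12.8 ± 1.61 in obesity-resistant libraries. Its log2 fold change was -0.84 (adjusted p = 0.023) in obesity-prone libraries, and its log2 difference in obesity-resistant libraries was -0.91 (adjusted p = 0.059). Gpcpd1, a glycerophosphocholine phosphodiesterase that releases choline, had a log2 fold change of -0.63 (adjusted p = 0.045). Chka, the kinase that commits choline to phosphatidylcholine, did not pass in obesity-prone (0.76, adjusted p = 0.061) or obesity-resistant libraries (1.09, adjusted p = 0.074). Chpt1, a choline phosphotransferase and the most abundant of the list at 309 FPKM, had a log2 difference of -0.26 ± 0.21 in obesity-prone against control (adjusted p = 0.43). The glycine methyltransferase Gnmt had one of -1.15 ± 0.37 in obesity-prone against obesity-resistant (adjusted p = 0.24).

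In the polyol pathway and aldose reductase family, 1 of 8 genes passed in obesity-prone against control, beside 7.00% of all genes. Slc2a5, the fructose transporter, had 5.31, 0.521, 3.96 and 1.10 CPM in the control libraries and 0 counts in all 3 obesity-prone libraries, where a floor of 3 counts over the group stands at 0.0271 CPM (adjusted p = 0.027). Obesity-resistant libraries had 5 counts in total, all in obesity-resistant 3. Slc2a5 thus passed the filter only through the control libraries, in which it was high. Its result was also known when the list was drawn up, so its call is a description. Akr1a1, the aldehyde reductase related to Akr1b3, was the most abundant at 94.8 FPKM. Its log2 difference in obesity-resistant against control was -0.34 ± 0.07 (adjusted p = 0.076), the opposite sign to Akr1b3. Akr1b8, of the same family, had one of 0.57 ± 0.16 in obesity-prone against control (adjusted p = 0.058).

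Cell volume regulation had 3 of 22 genes higher and 2 lower in obesity-prone against control, beside 3.71% and 3.29% of all genes. Its members include the subunits of VRAC, the volume-regulated channel of the LRRC8 family that releases chloride and osmolytes such as taurine from swollen cells. Lrrc8a, the essential subunit, rose from 59.4 ± 5.53 CPM (SD, n = 4) to 86.2 ± 10.1 (n = 3; log2 fold change 0.54, adjusted p = 0.023). Lrrc8c rose from 41.9 ± 8.80 to 74.0 ± 6.75 CPM (0.82, adjusted p = 0.019), and Lrrc8d fell from 133 ± 25.2 to 90.2 ± 10.2 CPM (-0.56, adjusted p = 0.047). The potassium-chloride cotransporter Slc12a4 rose (0.82, adjusted p = 0.046) and Stk39, the SPAK kinase that controls such cotransporters, fell (-0.58, adjusted p = 0.027).

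In obesity-resistant libraries Stk39 stood at 12.8 ± 0.757 CPM, against 20.7 ± 1.78 in control (log2 difference -0.70, adjusted p = 0.053). Slc12a2, the sodium-potassium-chloride cotransporter NKCC1, was at 346, 193 and 229.8 CPM there and at 77.8 to 128 in control (1.21, adjusted p = 0.12). Aqp7, the glycerol channel of adipocytes and the most abundant of the list at 173 FPKM, had a log2 difference of 0.05 ± 0.12 in obesity-prone against control (adjusted p = 0.82). In the SLC5 and SLC6 families, 1 of 10 other genes passed in obesity-prone against control, Slc6a13 again, beside 7.00% of all genes. The median log2 difference of the 10 was 0.40. The creatine transporter Slc6a8, the most abundant at 8.47 FPKM, had 0.43 ± 0.21 (adjusted p = 0.2), and the vitamin transporter Slc5a6 had -0.68 ± 0.24 in obesity-resistant against control (adjusted p = 0.19). Each of the 15 calls was lost in at least 1 of 10 fits that left out 1 library, all of them without control 3. Lrrc8c was lost in that 1 fit, Lrrc8a and Stk39 in 3, Hspa1b, Sardh, Slc2a5 and Slc6a13 in 4, Hspa1a and Hspa4l in 5, Fmo1, Gpcpd1, Lrrc8d, Slc12a4 and Tnf in 8, and Hmox1 in 9.

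**Figure D4:**
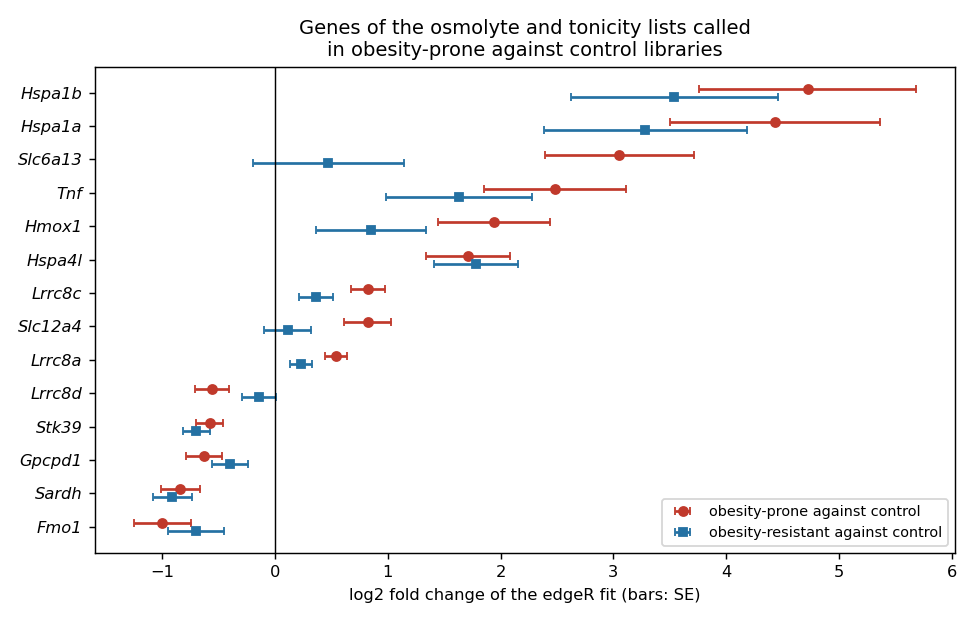
Log2 fold change with 1 SE of the pathway genes that passed the test in obesity-prone against control, shown for that comparison and for obesity-resistant against control; Slc2a5, which has no count in the obesity-prone libraries, is left out. The 9 higher genes lie right of 0 and the 5 lower genes left of it, and none passed in obesity-resistant against control.

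The genes whose pattern was most like that of each member were taken by Pearson's r of log2 CPM over the 10 libraries among 13902 named genes. The 10 points include the differences between groups, so a high r partly describes those differences, and no p is given. For Slc5a3 they were P4ha2, a collagen prolyl hydroxylase subunit (r = 0.991), Dnajb1, an HSP40 co-chaperone of HSP70 (0.989), and Plod1, a collagen lysyl hydroxylase (0.987). Dnajb1 stood at 30.9 ± 8.53 CPM in control, 119.5 ± 68.7 in the obesity-prone and 84.4 ± 4.50 in obesity-resistant libraries, and was highest in obesity-prone 2, at 197. For Akr1b3 they were the lysosomal channel Mcoln1 (0.986), the dipeptidyl peptidase Dpp7 (0.982) and the autophagy gene Gabarapl1 (0.977), and for Nfat5 the laminin subunit Lama3 (0.972), Cdr2 (0.966) and Prr13 (0.965).

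For Slc6a6 the nearest were Cacnb3, a calcium channel subunit (r = 0.974), Lca5 (0.953) and Egfl7, an endothelial secreted factor (0.945). Endothelial markers summed to 586 to 1066 CPM in control, with the highest value in control 4 as for Slc6a6, 897 to 1080 in the obesity-prone and 816 to 1010 in the obesity-resistant group, and their part in the Slc6a6 levels was not tested. For Slc5a7 they were Tmem98 (0.975), Pqlc3 (0.973) and Fam102b (0.972), and for Slc6a12 Slc44a3, a choline transporter-like protein (0.968), and Limch1 (0.961). The values for Slc5a7 and Slc6a12 rest on few counts.

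**Figure D5:**
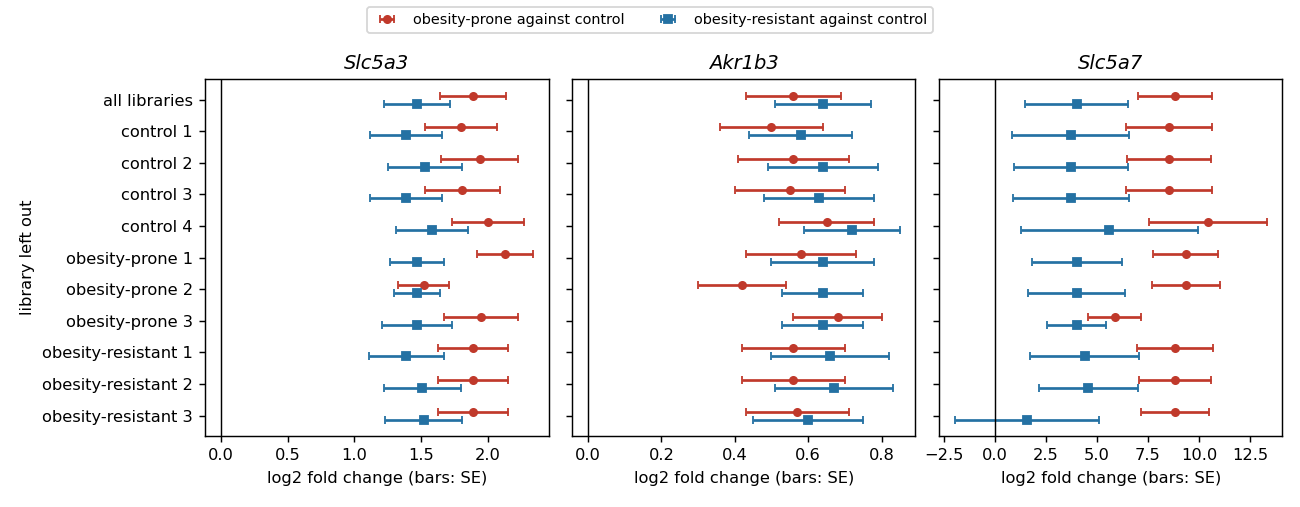
Log2 fold change (horizontal axis, bars of 1 SE) of Slc5a3, Akr1b3 and Slc5a7 against control, for obesity-prone and for obesity-resistant libraries, with all libraries (top row) and with each of the 10 libraries left out in turn. Slc5a3 stays between 1.52 and 2.13 in obesity-prone and between 1.39 and 1.58 in obesity-resistant libraries, while Slc5a7 spans 5.88 to 10.44 in the first.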

How the data were processed

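Per the labels' protocols, the authors aligned clean reads with Bowtie2 2.2.5 to a gene set of known and new transcripts, and RSEM 1.2.12 gave expected counts and FPKM values. HISAT2 2.0.4 and the build GRCm38.p6 are named in the submitters' processing notes. Strand and annotation release are not given in the sources used here. The deposited expected counts are not normalised, and 30.4% of them were not whole to within 1e-06. The deposited FPKM values are scaled for transcript length and depth. Another 6 columns, the authors' group means, were not used. Genes without a name held 23.7% of counts. They stayed in library sizes and in the fit.

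Counts were rounded and fitted with edgeR 4.0.16 (R 4.3.3): TMM factors, filterByExpr at a minimum count of 10, a robust quasi-likelihood test, 1 coefficient per group, all 10 libraries, 7 residual degrees of freedom. P-values were adjusted by Benjamini-Hochberg over all 19676 genes tested, with a threshold of 0.05. A gene rose or fell only if it passed. Levels between genes are compared in FPKM. Of 25017 numeric identifiers, 24350 matched RefSeq's GRCm38.p6 annotation. On simulated counts for obesity-prone against control (19676 genes), the fit recovered 45 of the 97 tested genes with a log2 change of 1 (46.4%) and 85 of the 99 with a change of 2 (85.9%), with 3 false calls of 133. The simulated counts were independent, with no library standing apart and no genes varying together, so these shares need not hold in these data.

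Replicate numbers were checked for pairing by correlating same-numbered libraries' deviations from their group means. The r was 0.15, 0.12 and 0.19 in obesity-resistant against control, which was treated as possibly paired. It was -0.09, -0.10 and -0.15 in obesity-prone against control and -0.11, -0.06 and 0.21 between the diet-fed groups, which were not. Obesity-resistant 3 correlated more with control 2 (0.24) than with control 3, and no label says what a number shares, so pairing is not established. The replicate block also takes out control 4, so its effect cannot be told apart from that of leaving out control 4. Alternatives were RLE and upper-quartile scaling, DESeq2 1.42.0, other filters, only the groups compared, the replicate block, limma 3.58.1 on log2(FPKM + 0.1, 0.5 or 1), a muscle marker covariate, and leaving out libraries.

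The 6 genes, the 8 pathway lists and the 10 marker lists were chosen with earlier results of these data known. Named list genes are those called in any comparison, the lowest p and the highest mean FPKM of each list (the lowest p in each comparison), and the 3 genes with the highest r to each member among those of at least 1 CPM, of which 1 is not reported here; Slc38a2, Slc12a2, Chka, Mrps6 and the neuronal genes were named after their values were seen. Promoters and coordinates are RefSeq's, exon overlaps GENCODE's, both on GRCm38.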

Additional observations from a re-analysis of the deposited data

Results flagged for a closer look

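In the control group, replicate 4 stood apart for Slc5a7, at 0.0268 CPM, because its other 3 libraries were at 0. That value is 1 count, below the floor of 3 counts, so it is not a detectable difference. The 6 control groups of 4 libraries, 1 per gene, were examined, and chance marks about 1 in 20.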

How the results depend on the processing

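Of 244 values under alternatives other than leaving out 1 library, 208 kept their direction and side of the threshold, or their size, and 36 did not. Where no other reason is named, the cause was not tested. Limma on log2(FPKM + 0.5, 0.1 and 1), which shrinks low genes by construction, gave Slc5a7 1.08, 2.32 and 0.73 in obesity-prone against control and 1.0, 2.0 and 0.68 against obesity-resistant, and with 0.5 and 1 gave Slc6a12 0.21 and 0.11 in the latter. In obesity-resistant against control, Slc5a3 passed at 1.47 with DESeq2 (8.55e-06), with the filter of 1 CPM in 3 libraries, with only the groups compared and with limma at 0.5, at 1.54 and 1.40 with limma at 0.1 and 1, at 1.50 with the muscle covariate, at 1.62 with the replicate block and at 1.60 without obesity-prone 3 and control 4 together. Akr1b3 passed at 0.64 with DESeq2 and with only the groups compared, and at 0.73 both with the replicate block and without that pair of libraries, where Slc6a12 passed at -2.36 and Slc5a7 in obesity-prone against obesity-resistant was 1.86. The replicate block ended or added no other call of the 6 genes.

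The list genes called in obesity-prone against control were 15 (7.00% of all genes were called), 28 with DESeq2 (14.4%), 6 with no filter (2.84%), 0 with only the groups compared (0.344%, fewer samples), 9 with limma at 0.5 and at 1 (5.21% and 4.92%) and 7 with the muscle covariate (3.33%). In obesity-resistant against control they were 0 (0.142%), 11 with DESeq2 (5.53%), 2 with no filter (0.232%), 1 with the stricter filter (0.435%), 6 with only the groups compared (2.05%), 6 with the replicate block (1.94%) and 22 without obesity-prone 3 and control 4 (11.1%). Against obesity-resistant, DESeq2 gave 2 for obesity-prone (2.93%).

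With 1 library left out at a time, the ranges in obesity-prone against control were 5.88 to 10.44 for Slc5a7, 0.15 to 0.39 for Slc6a6, -1.17 to -0.29 for Slc6a12 and 0 to 35 for the list calls. In obesity-resistant against control they were 1.39 to 1.58 for Slc5a3, 0.58 to 0.72 for Akr1b3, 1.57 to 5.61 for Slc5a7, -2.83 to -1.51 for Slc6a12, -0.04 to 0.21 for Slc6a6, -0.02 to 0.07 for Nfat5 and 0 to 13 for the list calls. Slc6a6 and Nfat5 thus changed sign around a difference near 0. In obesity-prone against obesity-resistant they were 1.87 to 7.26 for Slc5a7, 0.80 to 2.19 for Slc6a12 and 0 to 5 for the list calls. Depth limits Slc5a7 in control (1 count) and Slc6a12 in obesity-resistant libraries (14 counts).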
